A study of Mus musculus with 8 samples.

Results

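Toll-like receptors are membrane proteins with which innate immune and epithelial cells sense microbial molecules. The family was followed here in mouse colon through 9 listed genes, Tlr1 to Tlr9, taken as all probe sets of the deposited table whose RefSeq accession belongs to one of them. Of these, 8 have a probe set, each exactly 1, out of 14351 named genes on the array. Tlr5, which encodes the flagellin receptor, had no matching probe set and is not analysed here.

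The groups were colon RNA from adult mice of genotype STAT5b-/-, lacking the transcription factor STAT5b (3 arrays, replicate 1 from a male and replicates 2 and 3 from females), a wild type sample titled REF (female), and wild type mice titled WT (3 arrays, all female). REF was deposited as 2 columns with the same values to within 2.47e-07, less than sampling noise, and was counted as 1 sample; what REF stands for is not labelled. The labels give no strain and name no animal for a replicate, so the p-values reflect how far these arrays vary, and that variation may be technical. Each deposited value had been divided by the WT mean of its own probe set, so a receptor can be compared between samples, but no receptor can be called more abundant than another. None of the 8 probe sets reached the lowest deposited value, 0.01.

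Members of the family share an outer part of leucine-rich repeats and an inner signalling domain, the TIR domain. TLR1, TLR2, TLR4, TLR5 and TLR6 sit mainly at the cell surface and recognise bacterial lipopeptides, lipopolysaccharide or flagellin, while TLR3, TLR7, TLR8 and TLR9 sit in endosomes and recognise nucleic acids. Most signal through the adaptor MyD88 to NF-kB. In the gut wall they are carried by macrophages, dendritic cells, B cells, stromal cells and the epithelium, which faces the bacteria of the lumen.

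In arrays labelled STAT5b-/-, the lipopeptide receptor genes Tlr1 and Tlr2 were higher than in WT, by 6.16-fold and 2.33-fold, and the lipopolysaccharide receptor gene Tlr4 and the endosomal RNA sensor gene Tlr7 were lower, at 0.421 and 0.503 of WT. The genes Tlr3, Tlr6, Tlr8 and Tlr9 did not pass the test. In whole colon RNA, fewer cells of a type and less RNA per cell cannot be told apart, in these and all later results. Thus 2 of the 8 measured receptors rose and 2 fell (limma, Benjamini-Hochberg adjusted p under 0.05 over all genes), where 13.3% of all genes rose and 8.42% fell. Either call was made for 4 of the 8, against 21.7% of all genes. The 3 STAT5b-/- values lay wholly above or wholly below the 3 WT values for 5 of the 8, against 41.5% of all genes. The median log2 fold change over the 8 receptors was -0.19, and over all genes 0.007.

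**Figure D1:**
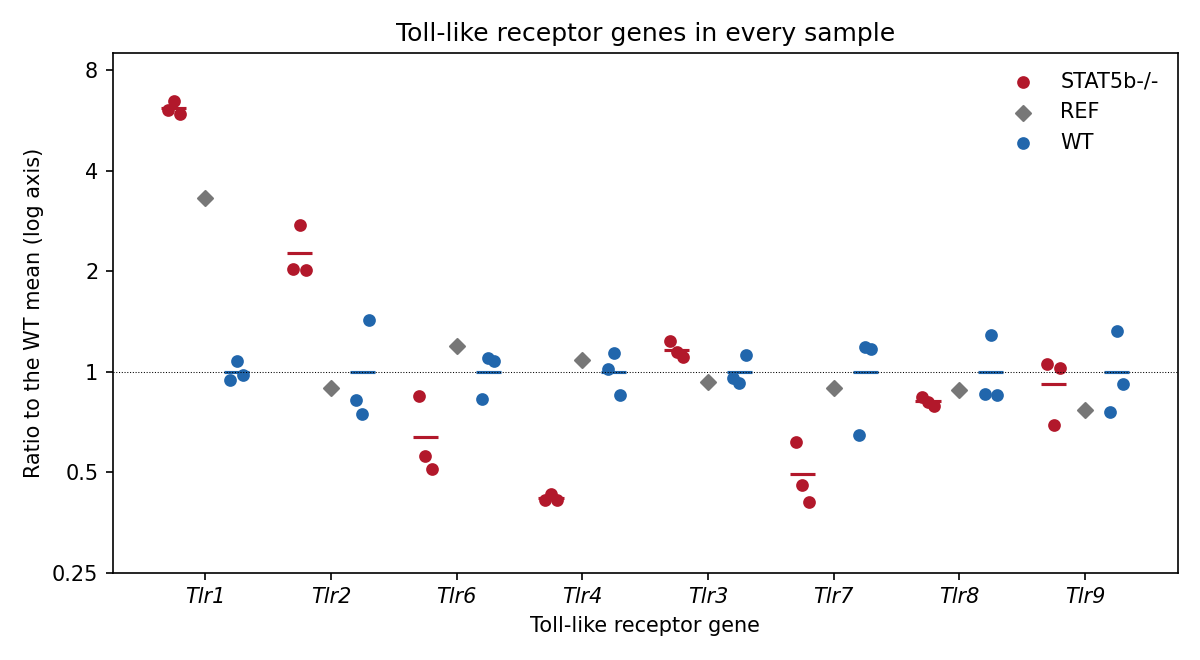
Ratio to the WT mean (log axis) of each Toll-like receptor gene; circles are single arrays of STAT5b-/- (red, left) and WT (blue, right), the grey diamond between them is REF, and bars are group means. Tlr1 lies near 6 in all STAT5b-/- arrays and at 3.30 in REF, whereas the Tlr4 values of STAT5b-/- lie between 0.411 and 0.431.

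The level of the targeted gene was used to check the labels. For Stat5b itself the arrays labelled STAT5b-/- differed from WT by 0.26 ± 0.12 on the log2 scale (SE; limma adjusted p = 0.175), so it was not measured lower there, and all directions given here rest on the labels. Which stretch of the gene was mutated is not labelled, and probes elsewhere in the transcript would check nothing. Median log2 ratios over all probe sets were -0.077 in REF at the lowest and 0.063 in WT replicate 2 at the highest.

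Tlr1 encodes the partner with which TLR2 recognises triacylated bacterial lipopeptides. Its ratios were 6.08, 6.47 and 5.90 in the STAT5b-/- arrays, 3.30 in REF, and 0.945, 1.08 and 0.977 in the WT arrays. The 3 groups were fully apart, with REF between the other samples. The log2 fold change over WT was 2.62 ± 0.12 (SE, n = 3 each; limma adjusted p = 8.83e-05), the 67th largest rise among 14351 genes. The SD was 0.291 around a mean ratio of 6.15 in STAT5b-/- arrays, and 0.0697 around 1 in WT arrays. The call for Tlr1 held under all 16 other settings tried, with log2 fold changes of 0.90 (against REF) to 2.68, among them 1.69 under quantile normalization, and adjusted p of 5.25e-05 to 0.0302.

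The REF value of Tlr1 stands out among wild type values. At 3.30 it was the highest REF ratio of all 14351 named genes (rank 1), and by the difference of mean log2 values it ranked 5. With REF as 1 sample against 3 WT arrays, its log2 difference was 1.73 ± 0.21 (SE; limma unadjusted p = 0.000799), which did not pass after adjustment over all genes (adjusted p = 0.998). STAT5b-/- arrays set directly against REF, a comparison added after the values were seen, gave 0.90 ± 0.17 for Tlr1 (SE; limma adjusted p = 0.0302), so the size of the rise depends on which wild type sample is used: 6.16-fold over WT and 1.86-fold over REF. With REF added to the WT arrays in 1 wild type group, the log2 fold change of Tlr1 was 2.19 ± 0.42 (limma adjusted p = 0.00778).

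Tlr2 encodes the receptor that pairs with TLR1 or TLR6. Its ratios were 2.02, 2.74 and 2.01 in the STAT5b-/- arrays, 0.890 in REF, and 0.824, 0.747 and 1.43 in the WT arrays. All STAT5b-/- values lay above every wild type value, the nearest being WT replicate 3. Tlr2 thus had a log2 fold change over WT of 1.22 ± 0.27 (SE; limma adjusted p = 0.0205), from mean ratios of 2.26 ± 0.421 in STAT5b-/- and 1 ± 0.374 in WT (SD, n = 3 each). The call was less firm than that of Tlr1. It ended when any one STAT5b-/- array was left out (limma adjusted p = 0.0615, 0.0805 and 0.0559 without replicates 1, 2 and 3) and without WT replicate 1 (0.0597), and over all 16 settings adjusted p ranged from 0.00741 to 0.668.

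Tlr6 encodes the other partner of TLR2, for diacylated lipopeptides, and is the direct neighbour of Tlr1 on chromosome 5, with 0 protein-coding genes between them in the RefSeq annotation. The STAT5b-/- ratios of Tlr6 were 0.847, 0.560 and 0.510, the REF ratio was 1.19, and the WT ratios were 0.827, 1.09 and 1.08. The groups overlapped through STAT5b-/- replicate 1, the male, and WT replicate 1. Over WT, Tlr6 had a log2 fold change of -0.67 ± 0.23 (SE; 95% interval -1.21 to -0.13; limma adjusted p = 0.0792), and without STAT5b-/- replicate 1 it was -0.89 ± 0.18 and passed (limma adjusted p = 0.0345). Tlr1 and Tlr6 are closely related in sequence. The probes of the array are not given in the sources used here, so signal that one might take from the other was not tested.

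The sequences upstream of Tlr1 and Tlr2 are shown because these are the receptor genes that rose. They are the 250 bases before each annotated start, 5′ to 3′ on the gene's strand, from RefSeq's annotation of build GRCm38.p6. Tlr1 has 2 annotated starts and Tlr2 has 1, all on the minus strand. The windows are chr5:64933559-64933808 and chr5:64932700-64932949 for Tlr1 and chr3:83841609-83841858 for Tlr2. Each start lies just past the lower-numbered end of its window. Capitals mark matches to TTCNNNGAA (the usual STAT site, N being any base, the same on both strands), to GAGGAA on either strand (the core of many sites of the myeloid factor PU.1), and to the NF-kB consensus on either strand.
Tlr1, first start: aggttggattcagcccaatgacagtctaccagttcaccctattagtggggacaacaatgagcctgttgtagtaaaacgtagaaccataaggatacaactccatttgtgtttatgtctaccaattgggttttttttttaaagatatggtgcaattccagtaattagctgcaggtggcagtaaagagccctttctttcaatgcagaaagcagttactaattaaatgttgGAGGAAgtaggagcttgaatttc
Tlr1, second start: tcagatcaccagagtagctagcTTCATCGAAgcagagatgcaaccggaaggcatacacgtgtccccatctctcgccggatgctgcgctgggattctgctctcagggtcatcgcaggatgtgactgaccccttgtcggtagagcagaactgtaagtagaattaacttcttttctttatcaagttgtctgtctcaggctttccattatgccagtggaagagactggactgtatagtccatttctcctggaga
Tlr2: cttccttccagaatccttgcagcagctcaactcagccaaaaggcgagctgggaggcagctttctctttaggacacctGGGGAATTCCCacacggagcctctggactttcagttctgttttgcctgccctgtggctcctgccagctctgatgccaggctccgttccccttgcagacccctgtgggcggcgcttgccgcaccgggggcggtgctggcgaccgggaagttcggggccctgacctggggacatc

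The second Tlr1 window holds 1 match to the STAT site, TTCATCGAA, which ends 219 bases before the start, and the first holds GAGGAA, ending 17 bases before the start. The Tlr2 window holds 2 overlapping matches to the NF-kB consensus, GGGGAATTCC and GGGAATTCCC. Of 32851 windows of the same length before annotated mouse gene starts, 7.02% held the STAT site, 23.3% GAGGAA and 3.9% the NF-kB consensus. Of the 9 windows available for 7 of the listed receptor genes, 2 held the STAT site (Tlr1 and Tlr8), 3 held GAGGAA (Tlr1, Tlr8 and Tlr9) and 2 held the NF-kB consensus (Tlr2 and Tlr3). A match is a description of the letters and shows no binding.

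Tlr4 encodes the receptor for lipopolysaccharide of Gram-negative bacteria. Its ratios were 0.413, 0.431 and 0.411 in the STAT5b-/- arrays, 1.08 in REF, and 1.02, 1.13 and 0.850 in the WT arrays. The STAT5b-/- values lay close together and far below all wild type values. Tlr4 fell in the STAT5b-/- arrays, with a log2 fold change over WT of -1.25 ± 0.14 (SE, n = 3 each; limma adjusted p = 0.00191), from mean ratios of 0.419 ± 0.011 in STAT5b-/- and 1 ± 0.143 in WT (SD). Against REF alone it was -1.37 ± 0.20 (limma adjusted p = 0.0142). The fall passed under 15 of 16 other settings, with adjusted p of 0.000421 to 0.0618, and missed the threshold under quantile normalization, where it was -0.94 ± 0.18. That setting narrows the spread of the STAT5b-/- ratios and widens that of the WT ratios, here and in all later results.

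**Figure D2:**
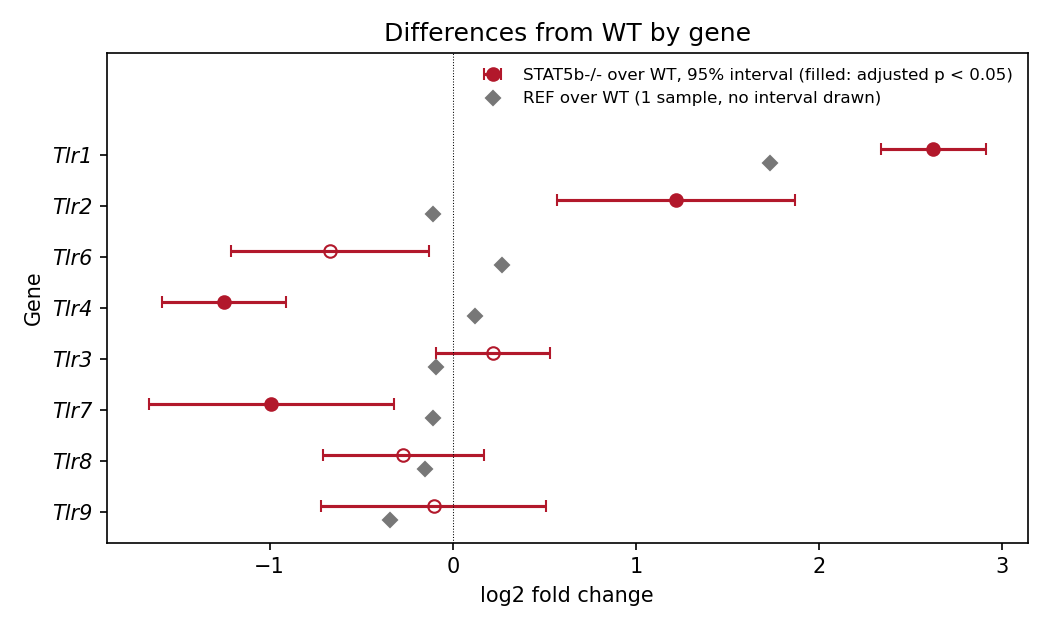
Log2 fold change of each receptor gene for STAT5b-/- over WT (red circles with 95% intervals, filled where the adjusted p is under 0.05) and for REF over WT (grey diamonds). The intervals of Tlr1, Tlr2, Tlr4, Tlr6 and Tlr7 leave out 0, and in REF only Tlr1 lies beyond 1 on the log2 scale.

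Of the endosomal receptors, Tlr7 passed the test and Tlr3, Tlr8 and Tlr9 did not. Tlr7, a sensor of single-stranded RNA that is used by plasmacytoid dendritic cells and B cells, had ratios of 0.617, 0.456 and 0.406 in the STAT5b-/- arrays, 0.891 in REF, and 0.646, 1.19 and 1.17 in the WT arrays. The groups did not overlap, but WT replicate 1 lay close to STAT5b-/- replicate 1. For Tlr7 the log2 fold change was -0.99 ± 0.28 (SE; limma adjusted p = 0.048), just past the threshold. The call ended without STAT5b-/- replicates 1, 2 or 3 (limma adjusted p = 0.0665, 0.143 and 0.149) and without WT replicates 2 or 3 (0.0804 and 0.133), and over all 16 settings adjusted p was 0.0138 to 0.372. Tlr7 lies on chromosome X, and the 1 male array gave the highest of the 3 STAT5b-/- values; without it the log2 fold change was -1.16 ± 0.31.

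Tlr8, the direct neighbour of Tlr7 on chromosome X, encodes a sensor of RNA breakdown products in humans. Its ratios were 0.840, 0.811 and 0.790 in the STAT5b-/- arrays, 0.882 in REF, and 0.858, 1.29 and 0.852 in the WT arrays. The groups did not overlap, yet WT replicates 1 and 3 lay close above the STAT5b-/- values. Its difference of -0.27 ± 0.19 on the log2 scale failed the test (95% interval -0.71 to 0.17; limma adjusted p = 0.366).

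Tlr9, a sensor of unmethylated CpG DNA, had ratios of 1.05, 0.690 and 1.02 in the STAT5b-/- arrays, 0.768 in REF, and 0.758, 1.33 and 0.916 in the WT arrays. The groups overlapped, and the log2 fold change of -0.10 ± 0.26 had a 95% interval of -0.72 to 0.51 (limma adjusted p = 0.818). The sign of this difference turned without STAT5b-/- replicate 2 (0.09) and without WT replicate 2 (0.12).

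Tlr3, a sensor of double-stranded RNA that signals through the adaptor TRIF instead of MyD88, had ratios of 1.23, 1.15 and 1.11 in the STAT5b-/- arrays, 0.933 in REF, and 0.954, 0.922 and 1.12 in the WT arrays. The lowest STAT5b-/- value lay just below the highest WT value. Its difference of 0.22 ± 0.13 on the log2 scale failed the test (95% interval -0.09 to 0.53; limma adjusted p = 0.294). For Tlr3, Tlr8 and Tlr9, changes as large as that of Tlr1 lie outside the intervals.

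REF is 1 more sample labelled wild type that can be set beside the WT arrays. As what REF stands for is not labelled, its distance from them is no measure of the spread between wild type mice. Among the 8 receptors REF fell outside the range of the 3 WT values in 2, Tlr1 and Tlr6, against 48.4% of all genes. In the limma test of REF over WT 0 of 8 receptors passed, as did 0% of all genes, and 1 receptor, Tlr1, had an unadjusted p under 0.05, against 1.45% of all genes. With STAT5b-/- arrays set against REF instead of WT, 2 of 8 passed, Tlr1 higher and Tlr4 lower, against 5.83% of all genes; this fit takes the spread of the lone REF sample from the other groups. These comparisons share samples with the main one.

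The genes whose values across the 3 STAT5b-/- arrays, REF and the 3 WT arrays lay nearest to a called receptor were found by the root mean square difference of log2 ratios over these 7 samples, among 14096 genes whose symbol is more than a provisional number. For Tlr4 they were Ckmt1, Plk2 and Pdia6, with differences of 0.11, 0.11 and 0.12. For Tlr2 they were Plin4, Mmp13 and Cblc (0.11, 0.14 and 0.19), and for Tlr7 Palmd, P2ry12 and Isl2 (0.14, 0.19 and 0.21). Tlr1 had no such close match, the nearest being Gsdme, Rhod and Ihh (0.42, 0.47 and 0.48). Their REF ratios were 1.77, 1.77 and 1.42. As no other named gene had a REF ratio as high as the 3.30 of Tlr1, a lower value in REF was fixed in advance.

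Receptors act with helper proteins and a chain of adaptors, kinases and factors that act on genes, and 85 such genes were listed by role, including 3 further mouse receptors. Of the 82 that were measured, 19 rose and 11 fell, where 13.3% of all genes rose and 8.42% fell, and the median log2 fold change was 0.05 against 0.007 for all genes. Calls held for 12 of the 30 whichever single array was left out, and under quantile normalization for 1, Ccl5. Of the further receptors, Tlr12 (0.33 ± 0.21, limma adjusted p = 0.325) and Tlr13 (-0.44 ± 0.34, adjusted p = 0.423) did not pass, and Tlr11 had no probe set. The receptors, these lists and the marker lists below were chosen with earlier results of these data known. Setting their counts beside the shares of all genes is therefore a description and no test.

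**Figure D3:**
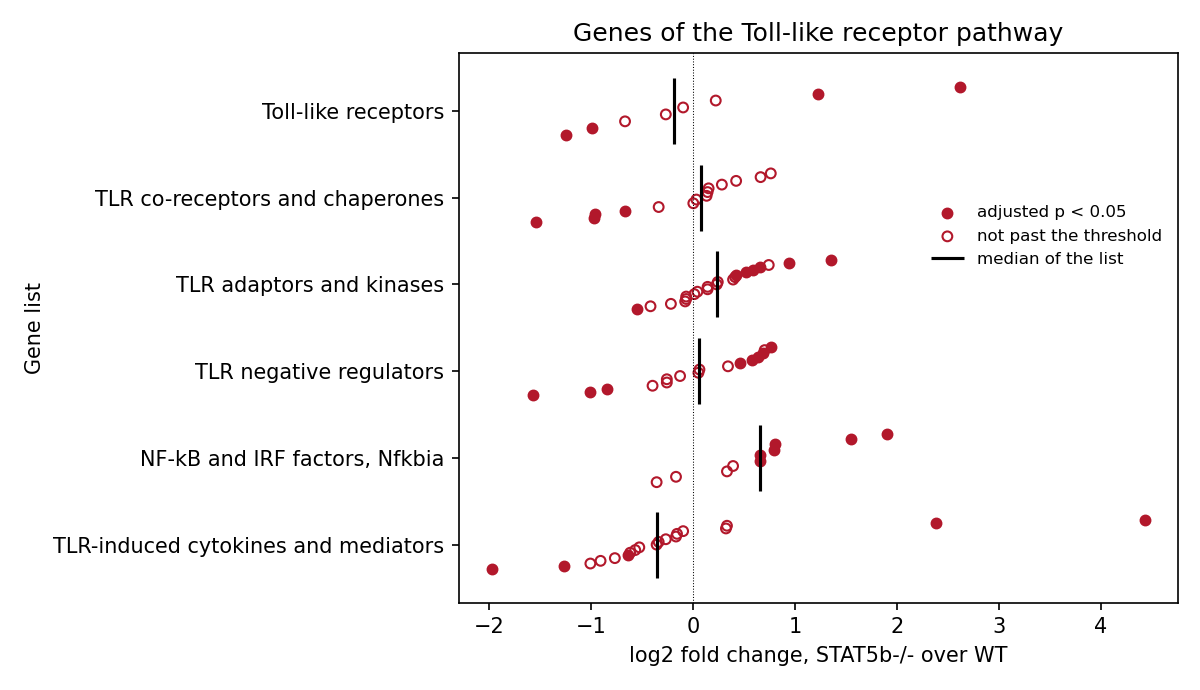
Log2 fold change (STAT5b-/- over WT) of each measured gene by role in Toll-like receptor signalling, filled where the adjusted p is under 0.05, with the median of each list as a bar. The list of NF-kB and IRF factors with the inhibitor gene Nfkbia lies to the right, with a median of 0.65, and the cytokine list spreads from -1.98 to 4.43.

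Co-receptors and chaperones fell in 4 of 14 and rose in 0, against 8.42% and 13.3% of all genes, with a median log2 fold change of 0.08. On leaving out single arrays 2 or 3 fell, with 2 without STAT5b-/- replicate 1 or WT replicate 1, and 2 rose without WT replicate 1 and 1 without WT replicate 2. Cd14, which hands lipopolysaccharide to TLR4, had ratios of 0.266, 0.349 and 0.412 in the STAT5b-/- arrays, 0.735 in REF, and 0.872, 1.29 and 0.836 in the WT arrays. It fell together with Tlr4, by 1.54 ± 0.23 on the log2 scale (SE; limma adjusted p = 0.00525), and all STAT5b-/- values lay below all wild type values. The third part of that receptor complex, Ly96, had ratios of 1.12, 1.15 and 0.976 in the STAT5b-/- arrays, 1.10 in REF, and 1.05, 0.700 and 1.25 in the WT arrays, and its difference of 0.15 ± 0.23 on the log2 scale failed the test (adjusted p = 0.69).

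Hsp90b1, the endoplasmic reticulum chaperone that folds most of these receptors, fell by 0.96 ± 0.15 (limma adjusted p = 0.00572). Ly86, partner of the receptor relative CD180, fell by 0.97 ± 0.25 (adjusted p = 0.0355), and Lbp, the lipopolysaccharide binding protein, by 0.67 ± 0.19 (adjusted p = 0.0496), while REF also had a low Lbp ratio, 0.642. The call of Ly86 ended without STAT5b-/- replicates 1 or 2 or WT replicates 1 or 2 (adjusted p up to 0.123), and that of Lbp without STAT5b-/- replicates 1 or 3 or WT replicates 1 or 3 (up to 0.157). Unc93b1, which carries nucleic acid receptors to endosomes, differed by 0.13 ± 0.21 on the log2 scale (adjusted p = 0.715).

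Adaptors and kinases rose in 6 of 21 and fell in 1, against 13.3% and 8.42% of all genes, with a median of 0.23. Chuk, a kinase of the complex that frees NF-kB, rose by 0.94 ± 0.13 (limma adjusted p = 0.00418), from ratios of 2.05, 1.68 and 2.04 in the STAT5b-/- arrays, 1.03 in REF, and 1.01, 0.948 and 1.04 in the WT arrays. The receptor-proximal kinases Irak2 and Irak4 rose by 1.35 ± 0.27 (adjusted p = 0.0145) and 0.59 ± 0.11 (0.0127). Irak2 lost its call without STAT5b-/- replicates 1 or 2 and Irak4 without replicate 2 (adjusted p up to 0.0617 and 0.0568). Ube2n, a ubiquitin-conjugating enzyme that acts with TRAF6, fell by 0.55 ± 0.12 (adjusted p = 0.0163), a call that ended without STAT5b-/- replicates 1, 2 or 3 or WT replicate 3 (adjusted p up to 0.0694).

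Myd88, the main adaptor, had ratios of 1.81, 1.66 and 1.27 in the STAT5b-/- arrays, 1.45 in REF, and 1.06, 1.05 and 0.893 in the WT arrays. It rose by 0.65 ± 0.17 on the log2 scale (limma adjusted p = 0.0381), but REF lay within the STAT5b-/- values, and the call ended without STAT5b-/- replicates 1 or 2 or WT replicates 1 or 3 (adjusted p up to 0.127). Ticam1, which encodes TRIF, missed the threshold at 0.74 ± 0.22 on the log2 scale (adjusted p = 0.0578). Leaving out single arrays left between 1 and 6 of these 21 genes called higher.

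Negative regulators went both ways, with 5 of 16 higher, 3 lower and a median of 0.05, where 13.3% of all genes rose and 8.42% fell. Irak3, a pseudokinase of macrophages that blocks receptor signalling, had ratios of 0.437, 0.279 and 0.309 in the STAT5b-/- arrays, 0.888 in REF, and 1.05, 0.898 and 1.05 in the WT arrays. It fell by 1.57 ± 0.19 (limma adjusted p = 0.00247), and kept its call without any single array (adjusted p up to 0.0154). Sigirr, an inhibitory receptor of the gut epithelium, rose by 0.68 ± 0.15 (adjusted p = 0.0185), Tnip1, which acts with the NF-kB inhibitor A20, by 0.76 ± 0.16 (0.0161) and the deubiquitinase Otulin by 0.58 ± 0.13 (0.0233). Each of these rises ended without STAT5b-/- replicates 1, 2 or 3 or WT replicate 3, and that of Tnip1 also without WT replicate 1 (adjusted p up to 0.0766 for Sigirr, 0.0692 for Tnip1 and 0.0893 for Otulin). Leaving out single arrays left 0 to 4 of the list called higher and 1 to 3 lower. Irak3 was the only call of the list that held whichever array was left out.

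The list of NF-kB subunits, the NF-kB inhibitor gene Nfkbia and interferon regulatory factors rose in 6 of 10 and fell in 0, with a median of 0.65. Of all genes, 13.3% rose and 8.42% fell. Without Nfkbia, which is no transcription factor and whose product holds NF-kB in the cytoplasm, 5 of 9 rose. Nfkbia itself rose by 0.80 ± 0.15 on the log2 scale (limma adjusted p = 0.0114). Of the 6 calls, 5 held without any single array, the exception being Relb (adjusted p up to 0.106). Under quantile normalization 0 of the 10 were called. Rel, an NF-kB subunit of lymphoid and myeloid cells, had ratios of 5.07, 3.60 and 2.79 in the STAT5b-/- arrays, 1.04 in REF, and 1.13, 1.05 and 0.820 in the WT arrays, a rise of 1.90 ± 0.24 on the log2 scale (limma adjusted p = 0.00287). Irf7, the interferon regulatory factor downstream of TLR7 and TLR9, rose by 1.55 ± 0.29 (adjusted p = 0.0106), from ratios of 2.65, 3.0 and 2.69 in the STAT5b-/- arrays, 0.857 in REF, and 0.592, 1.15 and 1.26 in the WT arrays. Nfkb1 rose by 0.79 ± 0.14 (0.00939) and Irf8 by 0.65 ± 0.12 (0.00965).

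Cytokines and mediators that these receptors induce rose in 2 of 19 and fell in 3, where 13.3% of all genes rose and 8.42% fell. On leaving out an array 2 rose and 1 to 4 fell, with 1 without STAT5b-/- replicate 1 or 2. In the whole list, 15 of the 19 had a log2 fold change below 0, with a median of -0.36 against 0.007 for all genes. The list median was -0.13 without WT replicate 2, and between -0.51 and -0.38 without any other single array. Saa3, an acute-phase protein, and the chemokine Ccl5 rose by 4.43 ± 0.35 and 2.38 ± 0.27 (limma adjusted p = 0.000533 and 0.00194). Il10, the anti-inflammatory cytokine, fell by 1.98 ± 0.24 (adjusted p = 0.00228), with a REF ratio of 0.293 close to the STAT5b-/- ratios of 0.266, 0.239 and 0.232, against 0.901, 0.726 and 1.37 in WT. The neutrophil chemokine Cxcl1 fell by 1.27 ± 0.28 (adjusted p = 0.0208), a call that ended without STAT5b-/- replicates 1, 2 or 3 or WT replicate 1 (adjusted p up to 0.0777). The median for REF over WT was -0.39.

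Markers of the cells that carry these receptors also differed between the groups, with counts to be read against the 13.3% of all genes that rose and the 8.42% that fell. Under quantile normalization 7 of the 30 marker calls were made, namely Mrc1, Dcn, Dpt and the plasma cell markers Mzb1, Tnfrsf17, Pou2af1 and Derl3. Of 18 macrophage and dendritic cell markers 8 fell and 0 rose (3 to 7 fell on leaving out an array), among them the mannose receptor Mrc1 (log2 fold change -1.92 ± 0.19, limma adjusted p = 0.00107) and lysozyme Lyz2 (-1.33 ± 0.19, adjusted p = 0.00416). The geometric mean ratio of the list was 0.57 to 0.72 in the STAT5b-/- arrays, 0.982 in REF and 0.87 to 1.16 in the WT arrays. The groups thus did not overlap, which also held for 41.5% of all genes taken singly. Of 5 plasma cell markers 4 fell and 1, Sdc1, rose (0 rose whichever array was left out), with log2 fold changes of -2.65 ± 0.27 for Mzb1 (adjusted p = 0.00126) and -2.11 ± 0.23 for Tnfrsf17 (adjusted p = 0.0015). B cell markers fell in 1 of 7, against 8.42% of all genes, with Cd79b at -1.81 ± 0.41 (adjusted p = 0.023, and up to 0.0838 without STAT5b-/- replicates 1 or 2).

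Epithelial markers rose in 4 of 9 (1 to 5 on leaving out an array) and fell in 1 (0 on leaving out any array), with a geometric mean ratio of 1.29 to 1.39 in the STAT5b-/- arrays, 1.10 in REF and 0.976 to 1.01 in the WT arrays. Cdhr5, a brush border protocadherin, rose by 1.11 ± 0.15 (limma adjusted p = 0.00344) and Cldn3, a tight junction protein, by 0.81 ± 0.16 (adjusted p = 0.0133; up to 0.0603 without STAT5b-/- replicates 2 or 3). Fibroblast markers fell in 6 of 7 (4 to 6 on leaving out an array), with log2 fold changes of -1.11 ± 0.14 for Dcn and -1.08 ± 0.15 for Dpt (adjusted p = 0.00271 and 0.00364), and a geometric mean ratio of 0.514 to 0.631 in the STAT5b-/- arrays, 0.893 in REF and 0.881 to 1.07 in the WT arrays.

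T cell markers rose in 3 of 7 (1 to 3 on leaving out an array) and fell in 1, as Cd2 fell by 1.24 ± 0.18 (limma adjusted p = 0.00459) and Cd3g rose by 0.79 ± 0.15 (adjusted p = 0.0131; 0.0591 without STAT5b-/- replicate 2). Endothelial markers fell in 1 of 7, against 8.42% of all genes, with Tek at -0.78 ± 0.12 (adjusted p = 0.00627, and 0.109 under quantile normalization). Neutrophil and smooth muscle markers were called by limma in 0 of 8 and 0 of 6, with 3 and 0 at an unadjusted p under 0.05. Neutrophil markers fell in 2 without WT replicate 3 and in 1 without WT replicate 1, and rose in 1 without WT replicate 2. No marker was at the lowest deposited value. The falls of Tlr4, Tlr7, Cd14 and Irak3 and the rises of Tlr1 and Tlr2 thus stood beside differences in marker lists. The macrophage, B cell, plasma cell and fibroblast lists had lower geometric means in all STAT5b-/- arrays than in any WT array. The epithelial and T cell lists had higher ones. Among all genes taken singly, the groups did not overlap in 41.5%, and no such share was computed for lists. The B cell list, with 1 of 7 genes called, was barely apart, at 0.428 to 0.515 in the STAT5b-/- arrays and 0.579 to 1.41 in the WT arrays. The part of the marker differences in the receptor values was not tested.

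**Figure D4:**
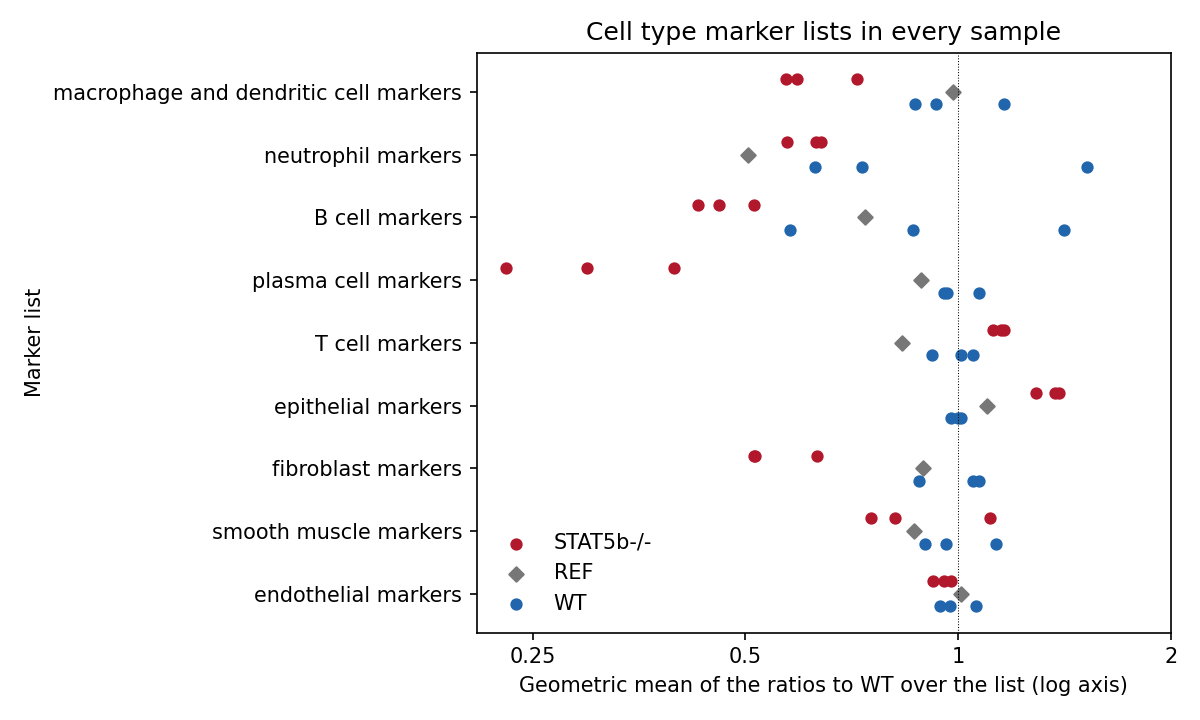
Geometric mean of the ratios to WT over each marker list (log axis) in every array; red circles are STAT5b-/-, grey diamonds REF and blue circles WT, with STAT5b-/- above WT in each row. STAT5b-/- arrays lie left of all WT arrays for macrophage and dendritic cell, B cell, plasma cell and fibroblast markers, and right of them for epithelial and T cell markers.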

How the data were processed

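RNA from adult mouse colon was labelled from 100 ng and measured on Affymetrix arrays, per the labels' protocols. There are 8 deposited columns, 2 of which are the REF columns with the same values. The submitters' processing notes name RMA with no version, and no source used here gives the array type. The deposited values are linear ratios: the authors' 3 WT columns average 1 in every probe set, to within 1.87e-07. No intensity or detection call was used, so the number of arrays limits the precision and dim probe sets could not be filtered.

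Accessions in the names of the 26180 probe sets were matched without version to RefSeq's gene table of GRCm38.p6. Of these, 15228 matched 1 symbol, 0 several and 10952 none, giving 14351 genes. Log2 ratios, without pseudocount, were averaged per gene and compared with limma 3.58.1 (lmFit, eBayes) in R 4.3.3: 3 STAT5b-/- against 3 WT arrays, and REF, as 1 sample, against 3 WT arrays, calling a gene at a Benjamini-Hochberg adjusted p under 0.05 across all genes. The fit was tested on simulated data.

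The members and lists were chosen with earlier results of these data known. All 9 receptors were to be named, with the called genes of smallest p in each list (4 per pathway list, 2 per marker list), Cd14, Ly96, Myd88, Ticam1 and Unc93b1, and 3 genes nearest to each called receptor. Alternatives were other normalizations, probe set rules, sample sets, a robust variance, sex, the replicate number as a block, and leaving out each array.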

Additional observations from a re-analysis of the deposited data

How the results depend on the processing

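The directions of Tlr1, Tlr2, Tlr3, Tlr4, Tlr6, Tlr7 and Tlr8 in STAT5b-/- over WT were kept under all 16 other settings. Among these, REF as its own group in the fit could not differ from the main result. Quantile normalization brings all arrays to 1 common distribution, from SDs of log2 ratios of 0.646 to 0.737 in STAT5b-/- and 0.289 to 0.363 in WT arrays. As the deposited ratios had been divided by the WT mean, it narrows the STAT5b-/- values and widens the WT values. Tlr2, for one, went from 1.22 ± 0.27 to 0.68 ± 0.51 on the log2 scale (SE). A call lost under this setting therefore does not show that a difference is absent. Quantile normalization gave 339 called genes, against 3119, with 41.3% of them higher, against 61.2%. It called 1 receptor (Tlr1) and 1 pathway gene, against 4 and 30, and 7 markers, against 30. Any other cause was not tested. A replicate block gave 2039 genes, 2 receptors (Tlr1 and Tlr4) and 17 pathway genes called; deviations of same-numbered arrays from their group means correlated over genes with r of 0.036, -0.098 and -0.186, every STAT5b-/- array correlated best with a WT array of another number, and Tlr2 and Tlr7 had limma adjusted p of 0.0524 and 0.111. Sex as a covariate, which is the same as leaving out the male array for the genotype term, gave 1914 genes and 14 pathway genes. Leaving out single arrays gave 1716 to 3551 genes, 2 to 3 receptors and 14 to 30 pathway genes. Tlr9 ranged from -0.28 to 0.12 on leaving out arrays and was 0.24 against REF. For REF over WT, with 0 receptors called throughout, leaving out a WT array moved Tlr2 to between -0.29 and 0.18, Tlr7 to between -0.40 and 0.04 and Tlr8 to between -0.25 and 0.04. The settings that leave out an array also have fewer samples; any other cause of an ended call was not tested.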
